A study of Homo sapiens with 24 samples.

Results

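CISH and the SOCS genes encode the suppressors of cytokine signalling, and all 8 genes of the family, CISH and SOCS1 to SOCS7, were examined in cultures of sensory neurons treated with cytokines. The genes were found by symbol in the count table, taking the first row of each symbol, which gave 8 of 36468 entries. The neurons were differentiated from the human embryonic stem cell line H9 (H9WAO9 in the labels, wild type, and the only line used) by way of vagal neural crest precursors, and their poly(A) RNA was sequenced in 24 libraries, as 6 batches of differentiation by 4 treatments. Vehicle cultures received bovine serum albumin in PBS, and the treated cultures received TGF-β at 2 ng/ml, or IL-4 at 10 ng/ml together with IL-13 at 3 ng/ml, for 5 days. A further library of every batch is labelled IL-6, for which neither a dose nor a duration is given in the labels. The cultures were mixed, with neurons as a minority of the cells according to the study's flow cytometry, so that fewer cells of a type and less RNA per cell cannot be told apart in any value below.

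SOCS proteins are brakes on cytokine receptors. A cytokine activates JAK kinases on its receptor, the JAKs phosphorylate STAT transcription factors, and the STATs switch on, among other genes, CISH, SOCS1, SOCS2 and SOCS3, whose products bind the receptor or the kinase and shut the signal down. Each member carries an SH2 domain, which binds phosphorylated tyrosines, and a SOCS box, which brings in a ubiquitin ligase built on elongins B and C and cullin 5. CISH is best known as a target of STAT5, SOCS1 of STAT6, and SOCS3 of STAT3, the factor downstream of IL-6, whereas IL-4 and IL-13 signal mainly through STAT6 and TGF-β signals through SMAD proteins and not through STATs.

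Between 33342682 and 39817784 reads per library were counted on genes (median 35775126), and the 8 members together took 0.0261 to 0.0342% of them. All 8 defining markers of neurons were detected, at a summed 1389 to 9177 CPM (library-size-scaled counts, with TMM normalization), and all 8 markers of fibroblasts and mesenchyme, at 2700 to 13475 CPM. Libraries of batch 1 stood apart with the lowest sums of neuron markers, 1389 to 2420 CPM, against 3021 to 9177 CPM in the other batches. In batch 2, markers of cycling cells summed to 57.8 CPM in the vehicle library, the lowest of that batch, and had a batch median of 349 CPM, against batch medians of 37.9 to 74.4 CPM elsewhere. Of 6 leukocyte markers, CD3E was at 0 in every library, 3 others had a mean under 1 CPM, and the sums were 15.9 to 35.4 CPM with IL-4 + IL-13 and 11.3 to 54.3 CPM with vehicle. Across 15480 entries, 20 of the 24 libraries had their highest mean correlation with libraries of their own batch. The other 4 were the vehicle library of batch 2 (0.0709 with its own batch, 0.449 with batch 4), the vehicle library of batch 4 (0.171 with its own batch, 0.433 with batch 2) and, also from batch 4, those treated with TGF-β and with IL-4 + IL-13, which were closer to batch 3. Within-batch ratios to vehicle in batches 2 and 4 rest on those vehicle libraries. Fits of the other 4 batches (1, 3, 5 and 6) are therefore given for CISH and SOCS1 with IL-4 + IL-13 against vehicle. They are also given for SOCS6 between TGF-β and IL-4 + IL-13. Values of the other results that passed come from all 6 batches, with no such fit beside them. What the differences in cell makeup contribute to the results below was not tested.

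The windows of 250 bases before an annotated start of CISH, SOCS1 and SOCS3 are printed here, since these are the members known best as STAT targets. RefSeq promoter entries on GRCh38.p14, the build of the count table, were at hand for 5 of the 8 members (CISH, SOCS1, SOCS3, SOCS4 and SOCS6). The windows were searched for TTCNNNGAA, the motif bound by most STAT dimers, and for TTCNNNNGAA, the spacing that STAT6 prefers. N is any base, both motifs read the same on either strand, and matches of the 2 motifs could share bases. Capitals mark the matches. The CISH window lies at chr3:50611775-50612024, the SOCS1 window at chr16:11256205-11256454 and the SOCS3 window at chr17:78360926-78361175, each on the minus strand and printed 5′ to 3′.
CISH: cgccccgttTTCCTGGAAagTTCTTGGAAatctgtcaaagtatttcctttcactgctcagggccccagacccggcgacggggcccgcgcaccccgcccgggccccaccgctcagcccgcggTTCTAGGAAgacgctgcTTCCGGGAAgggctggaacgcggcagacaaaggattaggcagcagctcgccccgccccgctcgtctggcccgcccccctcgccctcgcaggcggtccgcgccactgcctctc
SOCS1: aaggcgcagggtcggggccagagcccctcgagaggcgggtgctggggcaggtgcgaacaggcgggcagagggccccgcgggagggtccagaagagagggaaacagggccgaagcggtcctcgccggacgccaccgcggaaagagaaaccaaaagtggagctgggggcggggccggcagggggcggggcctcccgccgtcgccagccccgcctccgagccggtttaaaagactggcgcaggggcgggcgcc
SOCS3: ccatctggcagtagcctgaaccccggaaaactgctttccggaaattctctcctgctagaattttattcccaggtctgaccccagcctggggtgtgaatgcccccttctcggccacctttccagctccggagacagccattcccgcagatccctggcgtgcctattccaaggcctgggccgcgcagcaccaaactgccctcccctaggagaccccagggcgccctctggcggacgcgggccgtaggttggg
The CISH window held 4 matches to TTCNNNGAA. In order toward the gene, TTCCTGGAA began 241 bases before the start, TTCTTGGAA 230, TTCTAGGAA 129 and TTCCGGGAA 112 bases before it, so that they form a pair of pairs. Of 35116 windows of the same length, 6.57% held at least 1 match to TTCNNNGAA and 0.0142% (5 windows) held 4 or more. No match to TTCNNNNGAA lay in the CISH window, against 5.38% of all windows with at least 1. Neither motif was found in the windows of SOCS1, SOCS4 and SOCS6 or in either window of SOCS3. The other SOCS3 window, from a further promoter entry at chr17:78359668-78359917 on the minus strand, is not printed. Bases outside these windows were not searched. The promoter entries were not matched to the start of each gene's main transcript. A window without a match therefore does not show that the promoter of the gene lacks one. A match describes these letters alone, and binding of any factor was not measured.

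CISH, known for restraining STAT5 and T cell activation, rose steeply with IL-4 + IL-13. This gene, on chromosome 3 (50606489 to 50611774, minus strand, 3 exons in its main transcript), had 28, 51 and 75 reads as the lowest, median and highest count in the 6 vehicle libraries, and 420, 1023.5 and 1251 reads with IL-4 + IL-13. Its level rose from 1.35 ± 0.39 to 26.4 ± 7.76 CPM (SD, n = 6), a log2 fold change of 4.40 with a standard error (SE) of 0.38 and a 95% interval of 3.59 to 5.20, or 21.1-fold (edgeR, adjusted p = 7.1e-06). The rise was seen in 6 of 6 batches, by 2.83 to 5.16 on the log2 scale within a batch, and every treated library lay above every vehicle library. In batches 1, 3, 5 and 6 alone the log2 fold change was 4.71 (adjusted p = 5.5e-07). By p, CISH was entry 4 of the 29377 tested, and 10 of the 109 entries that rose had a larger fold change. Those 109 were 0.371% of the entries tested and those that fell were 0.262%. CISH was 1 of 8 members past the threshold, an adjusted p under 0.05 over all entries, and it was higher. Across the family, the median log2 fold change was -0.091, beside -0.0077 over all entries tested, since 6 of 8 members had a value below 0.

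**Figure D1:**
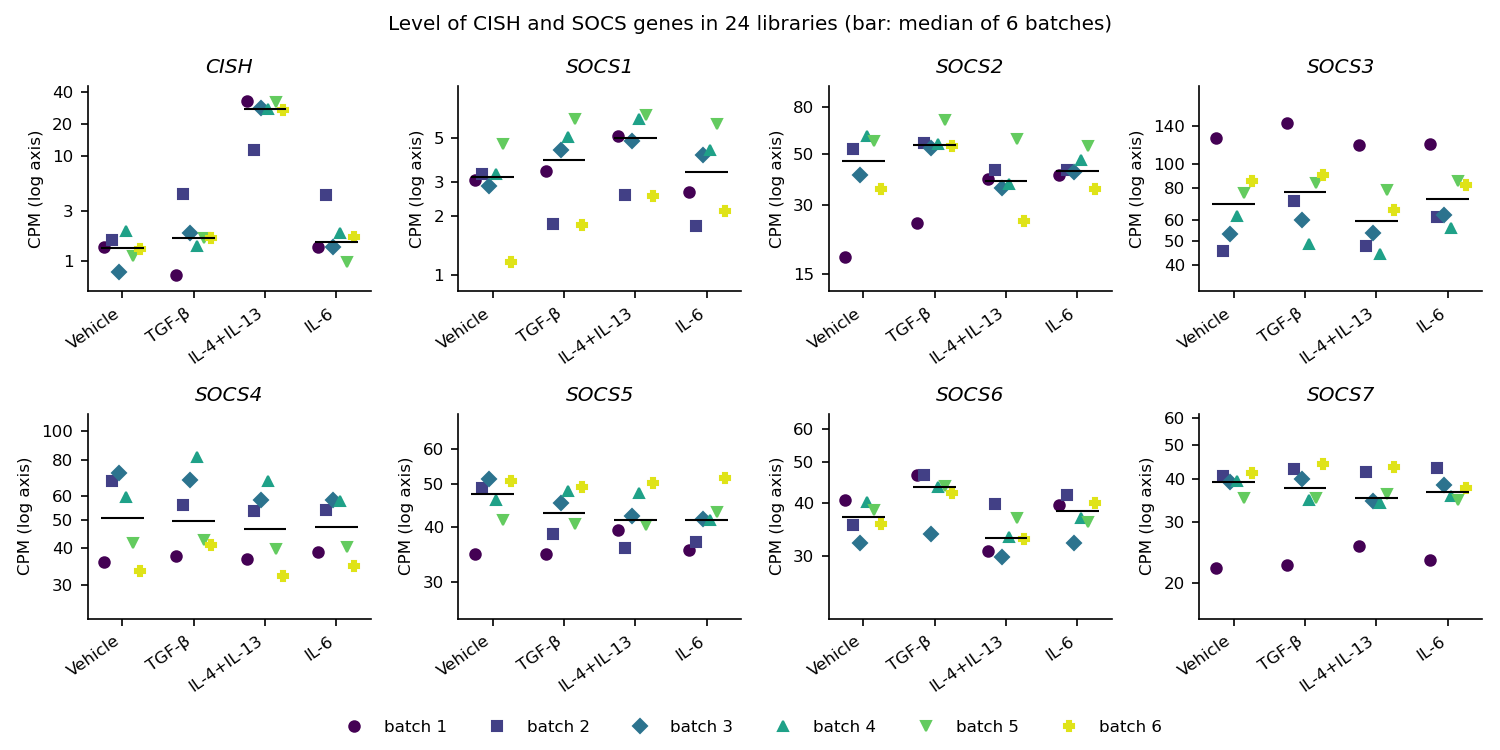
Level of each member in every library in CPM on a log axis, by treatment, with a symbol for each batch and a bar at the median of 6 batches. CISH alone has a treated group that does not overlap vehicle, and its 6 IL-4 + IL-13 libraries lie at 11.3 to 32.6 CPM, whereas batch 1 is the highest for SOCS3 and the lowest for SOCS7 in every group.

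CISH did not pass against vehicle with either of the other treatments. With TGF-β it had 24 to 148 reads (median 59.5, log2 fold change 0.44, SE 0.37, adjusted p = 0.908), and with IL-6 it had 34 to 136 reads (median 56.5, log2 fold change 0.41, SE 0.36, adjusted p = 0.866). The interval of the difference from vehicle was -0.33 to 1.21 for TGF-β and -0.36 to 1.17 for IL-6, so that a change of up to about 1 log2 unit could not be seen with these batches. Compared directly, TGF-β cultures had less CISH than IL-4 + IL-13 cultures (log2 fold change -3.96, SE 0.38, adjusted p = 9.3e-06) and the latter had more than IL-6 cultures (3.99, SE 0.38, adjusted p = 1.5e-05), each in 6 of 6 batches.

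Batch 2 differed from the rest for CISH. Its IL-4 + IL-13 library was the lowest of the 6, at 11.3 CPM beside 26.9 to 32.6 CPM in the others. Its TGF-β and IL-6 libraries, at 4.34 and 4.19 CPM, were the highest of their groups, whose other libraries had 0.733 to 1.84 and 0.979 to 1.87 CPM. The 2 STAT6 target genes looked up beside it did not share 1 pattern. ALOX15, a lipoxygenase gene induced by IL-4 and IL-13 in many cells, was likewise lowest in that IL-4 + IL-13 library, with 126 CPM beside 375 to 436 CPM in the other batches, but had 10 and 2 reads in the TGF-β and IL-6 libraries of batch 2. CCL26, an eosinophil chemokine gene, was lowest in the IL-4 + IL-13 library of batch 1, at 5.81 CPM, with 7.76 CPM in batch 2 and 10.8 to 56.4 CPM in the other batches. Without batch 2, the log2 fold change of CISH was 4.52 for IL-4 + IL-13 and 0.18 for TGF-β.

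The 5′ end of CISH overlaps that of MAPKAPK3, a kinase gene on the opposite strand, with 218 bases of shared exon in GENCODE. With strandedness not given in the sources used here, reads from the shared bases could belong to either gene. MAPKAPK3 had 25.6 ± 7.89 CPM with vehicle and 38.7 ± 5.18 CPM with IL-4 + IL-13 (SD, n = 6), a log2 fold change of 0.62 (SE 0.14) that missed the threshold (adjusted p = 0.0524).

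SOCS1, the inhibitor of JAKs downstream of interferon and IL-4 receptors, was the other member whose values leaned up with IL-4 + IL-13. The gene lies on chromosome 16 (11254417 to 11256204, minus strand, 2 exons) within the span of RMI2, which is on the opposite strand and shares no exon bases with it. SOCS1 had 48 to 164 reads with vehicle (median 115) and 91 to 245 with IL-4 + IL-13 (median 179.5), and the groups overlapped. Its log2 fold change was 0.58 (SE 0.18, unadjusted p = 0.00504), which did not pass after adjustment over all entries (adjusted p = 0.249), with higher values in 5 of 6 batches. The exception was batch 2, with a within-batch log2 ratio of -0.36, and there the vehicle library had more SOCS1 (3.29 CPM) than each of the treated libraries (1.79 to 2.56 CPM). That vehicle library is the one that correlated better with batch 4. With batch 2 left out the value was 0.80 (adjusted p = 0.0063), past the threshold, and with batches 2 and 4 left out it was 0.77 (adjusted p = 0.0549), which was not. Leaving out each batch in turn gave 0.49 to 0.80, past the threshold in 1 of 6 fits, the one without the exception. Without recourse to vehicle libraries, in IL-4 + IL-13 against IL-6, the former had more SOCS1 in 6 of 6 batches, by 0.43 (SE 0.18, adjusted p = 0.916). RMI2, a subunit of a DNA repair complex, had 0.64 ± 0.30 CPM with vehicle and 2.32 ± 2.37 CPM with IL-4 + IL-13 and passed narrowly (1.42, SE 0.32, adjusted p = 0.0497). RMI2 also had higher means with IL-6, at 2.06 ± 2.82 CPM (1.05, adjusted p = 0.850), and with TGF-β, at 1.47 ± 1.90 CPM (0.65, adjusted p = 0.723). Neither of these passed, and the SD exceeded the mean in each treated group. TGF-β and IL-6 gave log2 fold changes of 0.23 and 0.15 for SOCS1, with adjusted p of 0.900 and 0.902.

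**Figure D2:**
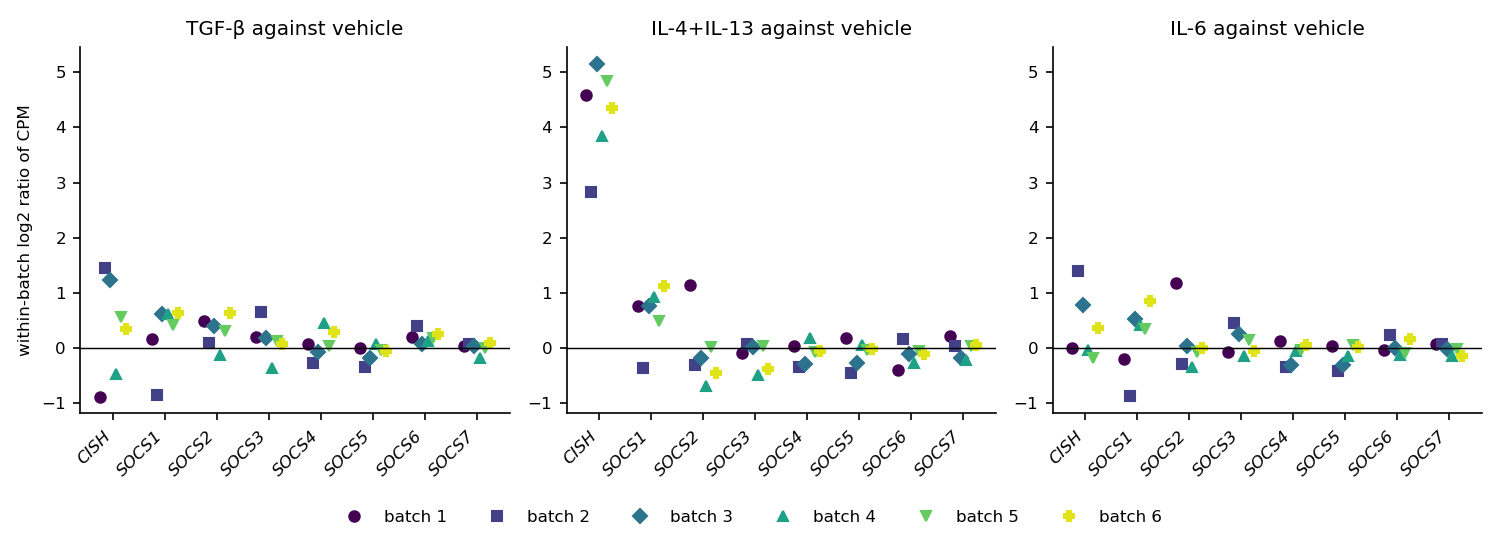
Within-batch log2 ratio of CPM against the vehicle library of the same batch, for each member and treatment, with a symbol for each batch. CISH lies at 2.83 to 5.16 with IL-4 + IL-13, while SOCS1 is above 0 in 5 of 6 batches and below 0 in batch 2.

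SOCS2, which restrains growth hormone signalling and is itself a STAT5 target, did not pass in any comparison. It lies on chromosome 12 (93569969 to 93626236, plus strand) and had 627 to 2330 reads with vehicle, 814 to 2468 with TGF-β, 916 to 2096 with IL-4 + IL-13 and 1307 to 1883 with IL-6. The log2 fold changes against vehicle were 0.29 under TGF-β, -0.090 under IL-4 + IL-13 and 0.061 under IL-6 (SE 0.18 in each). Batch 1 set most of this spread. Its vehicle library held 17.7 CPM and its TGF-β library 24.9 CPM, the lowest of their groups, and there SOCS2 was 1.19 higher on the log2 scale with IL-6 and 1.14 higher with IL-4 + IL-13, whereas in the other 5 batches those ratios ran from -0.34 to 0.043 and from -0.69 to 0.025. Between TGF-β and IL-4 + IL-13 the log2 difference was 0.38 (SE 0.18, adjusted p = 0.421), with more SOCS2 under TGF-β in 5 of 6 batches. Batch 1 was the exception, with a within-batch log2 ratio of -0.65. Without batch 1 the value was 0.58 (adjusted p = 0.0055), a fit that leaves out the only batch of opposite direction. Leaving out each batch in turn gave 0.22 to 0.58, past the threshold in 1 of 6 fits.

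SOCS3, the main feedback inhibitor of the IL-6 receptor chain gp130, did not differ detectably between IL-6 and vehicle. The gene lies on chromosome 17 (78356778 to 78360925, minus strand) and had 1691 to 4453 reads with vehicle (median 2566.5) and 2013 to 4089 with IL-6 (median 2652.5). Its log2 fold change was 0.086 (SE 0.088, interval -0.099 to 0.27, adjusted p = 0.882), with higher values in 3 of 6 batches. With TGF-β it was 0.14 and with IL-4 + IL-13 -0.15, neither past the threshold (adjusted p = 0.833 and 0.661). Set directly against each other, these treatments had more SOCS3 under TGF-β in 6 of 6 batches, by 0.29 (SE 0.089, unadjusted p = 0.00432), which edgeR did not call (adjusted p = 0.102) and DESeq2 did (adjusted p = 0.0264). SOCS3 was highest in batch 1 in each group, at 119 to 144 CPM beside 44.5 to 90.3 CPM in the other batches, the batch with the lowest sums of neuron markers.

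SOCS6, whose product binds KIT and other receptor tyrosine kinases, was the member besides CISH that passed in a comparison. It lies on chromosome 18 (70289045 to 70330199, plus strand), and it had 1285 to 1588 reads with TGF-β (median 1532.5) and 991 to 1482 with IL-4 + IL-13 (median 1241). TGF-β cultures held 42.8 ± 4.76 CPM and IL-4 + IL-13 cultures 33.9 ± 3.82 CPM (SD, n = 6). SOCS6 was higher with TGF-β in 6 of 6 batches, with a log2 fold change of 0.33 (SE 0.064, interval 0.20 to 0.47, adjusted p = 0.00465), although the groups overlapped across batches. In batches 1, 3, 5 and 6 alone the value was 0.34 (adjusted p = 0.0183). Vehicle lay between them, at 37.1 ± 3.31 CPM. The difference from vehicle was 0.20 for TGF-β (SE 0.064, unadjusted p = 0.00556, adjusted p = 0.290), higher in 6 of 6 batches, and -0.13 for IL-4 + IL-13 (adjusted p = 0.553), lower in 5 of 6, so neither comparison with vehicle passed. Fibroblast markers summed to 4218 to 13475 CPM with TGF-β and 2700 to 6433 CPM with IL-4 + IL-13, and markers of Schwann cells and satellite glia to 93.8 to 175 and 63.3 to 112 CPM, and their part in the SOCS6 difference was not tested.

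The direct comparison of TGF-β with IL-4 + IL-13 thus called 2 of 8 members, SOCS6 as higher and CISH as lower, where 1.08% of all entries were higher and 1.9% lower. By DESeq2, 3 members passed, SOCS3 being the third. The median log2 difference of the members was 0.096, beside -0.0048 over all entries.

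SOCS4, SOCS5 and SOCS7 did not pass in any comparison. SOCS4 and SOCS5, which act on the epidermal growth factor receptor, lie on chromosomes 14 (55027236 to 55049489) and 2 (46698937 to 46763129), and SOCS7, which binds insulin receptor substrates and other signalling adaptors, lies on chromosome 17 (38351844 to 38405593), each on the plus strand. Over the 24 libraries, SOCS4 had 1161 to 2707 reads, SOCS5 1139 to 2098 and SOCS7 739 to 1708. Against vehicle, the log2 fold changes of these 3 genes lay between -0.13 and 0.080, and the lowest adjusted p was 0.727. The narrowest interval was that of SOCS7, whose difference from vehicle was 0.0064 for TGF-β and -0.0073 for IL-4 + IL-13 (SE 0.058 in each). TGF-β cultures had more SOCS4 than IL-4 + IL-13 cultures in 6 of 6 batches, by 0.18 (SE 0.076, adjusted p = 0.321). In GENCODE, SOCS5 overlaps LINC01118 on the same strand by 160 exon bases, and SOCS2 overlaps SOCS2-AS1 on the opposite strand by 277, and these RNAs were not analysed here. SOCS7 has 2 rows in the table, with 31330 and 32408 reads in all. The counts of the second row were 0.942 to 1.13 times those of the first in every library, so reads of the gene may be split between them. The second row gave log2 fold changes of 0.016, 0.0011 and -0.062 for the 3 comparisons with vehicle.

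**Figure D3:**
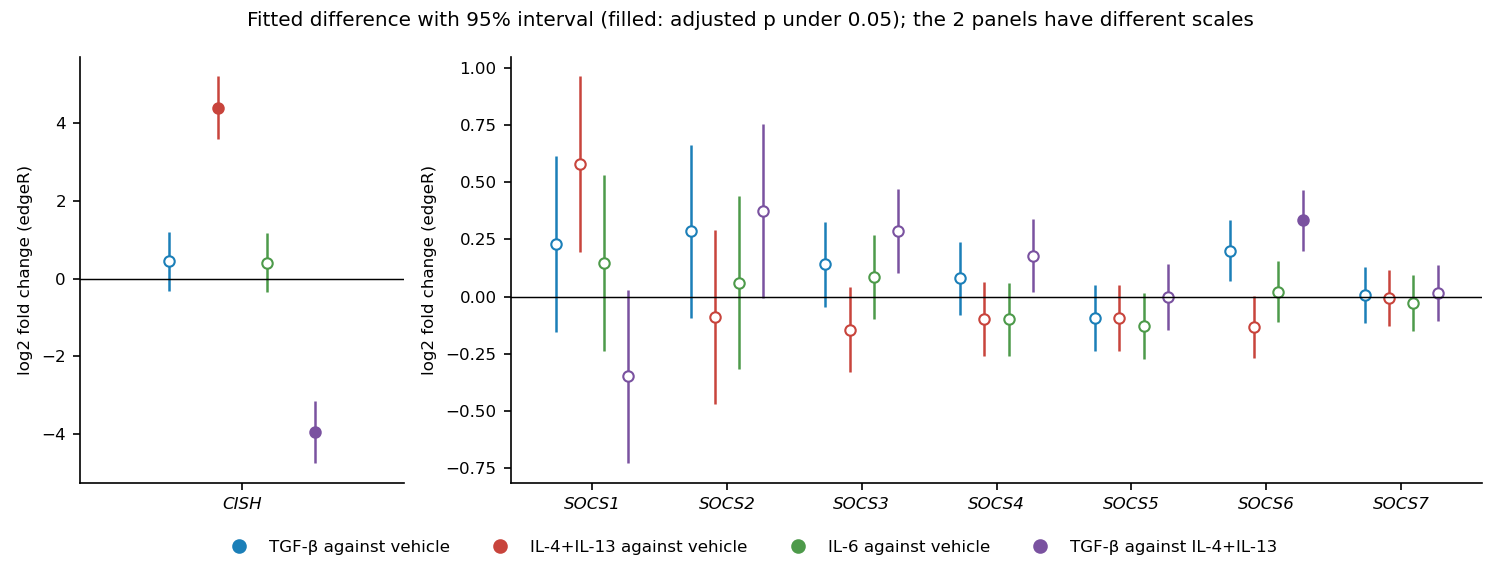
Log2 fold change of each member with its 95% interval from edgeR for the 3 treatments against vehicle and for TGF-β against IL-4 + IL-13, with filled points past the threshold and CISH on its own scale at the left. The filled points are CISH with IL-4 + IL-13, CISH in the direct comparison and SOCS6 at 0.33 in the direct comparison.

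With TGF-β, 0 of 8 members passed against vehicle by edgeR and by DESeq2, and 1, SOCS6, had an unadjusted p under 0.05. Among all entries 0.0817% were called higher and 0.266% lower, and read against those shares 0 of 8 members is not a result about the family. The members' median log2 fold change was 0.17, beside -0.012 over all entries, and 7 of 8 had a value above 0. With IL-6, 0 of 8 members passed by either tool and 0 had an unadjusted p under 0.05, in a comparison where edgeR called 0% of entries higher and 0% lower (1400 entries at an unadjusted p under 0.05; 132 called by DESeq2). The median was 0.041, beside -0.013 over all entries. TGF-β against IL-6 also called 0 of 8 members (0 by DESeq2, 2 at an unadjusted p under 0.05, SOCS4 and SOCS6), where 0.0408% of entries were higher and 0.0374% lower. IL-4 + IL-13 against IL-6 called CISH alone among the members, where 0.327% were higher and 0.129% lower. These comparisons share the vehicle or treated libraries and are not independent of each other.

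Treatment accounted for most of the spread of CISH and for little of that of most other members. Of the sum of squares of log2 CPM over the 24 libraries, treatment held 89.5% and batch 1.80% for CISH. SOCS6 followed with 42.9% for treatment and 37.5% for batch. For SOCS1, SOCS2, SOCS3, SOCS4, SOCS5 and SOCS7, batch held 54.9 to 94.3% and treatment 0.201 to 11.6%. The medians over 15480 entries with a mean of at least 1 CPM were 68.2% for batch and 5.28% for treatment. SOCS7 was the most batch-bound member, with 22.1 to 25.6 CPM in batch 1, below each library of the other batches. SOCS3 and SOCS4 went opposite ways between batches, with a Pearson correlation of -0.86 between their 6 batch means, a description over 6 points that share batch and cell makeup.

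**Figure D4:**
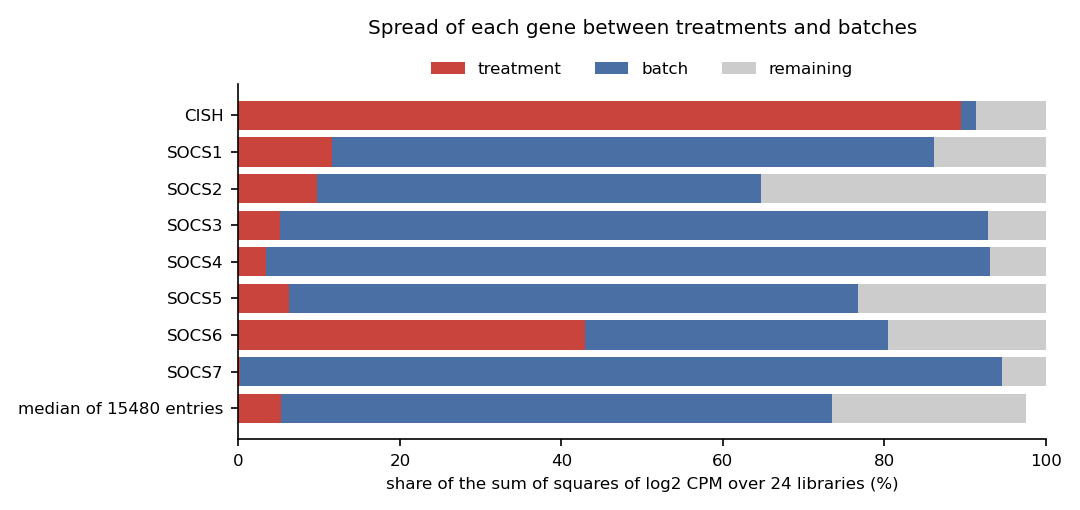
Share of the sum of squares of log2 CPM over 24 libraries that lies between treatments, between batches and in the remainder, as horizontal bars for each member and for the median of 15480 entries. CISH is the only member with most of its spread between treatments (89.5%), and the last bar stops short of 100% since each of its parts is a median of its own.

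Levels were ordered between members per kilobase of the main (MANE Select) transcript in GENCODE, which is 1238 bases long for SOCS1 and 8258 for SOCS7. In vehicle cultures SOCS3 was highest, at 27.4 ± 10.6 CPM per kb, followed by SOCS2 (18.3 ± 6.66), SOCS5 (9.57 ± 1.36), SOCS4 (7.50 ± 2.44), SOCS6 (6.51 ± 0.58), SOCS7 (4.40 ± 0.89), SOCS1 (2.46 ± 0.91) and CISH (0.67 ± 0.19; SD, n = 6 throughout). Of neighbours in this order, SOCS6 and SOCS7 had ranges that did not meet. The SOCS7 level rests on the first of its 2 rows, between which its reads may be split. Its place in the order and its gap to SOCS6 may therefore come from the row used, in every group. SOCS3 lay above SOCS2 in 4 of 6 batches and SOCS4 above SOCS6 in 3 of 6, so the order within these 2 pairs did not exceed the spread between batches. With IL-4 + IL-13, CISH moved from the lowest place to the third, at 13.1 ± 3.84 CPM per kb, between SOCS2 (16.6 ± 4.45) and SOCS5 (8.97 ± 1.13), and lay above SOCS5 in 5 of 6 batches. With TGF-β and with IL-6 it had the lowest mean, at 0.96 ± 0.61 and 0.94 ± 0.58 CPM per kb, but the ranges of CISH and SOCS1 overlapped there, and SOCS1 lay above CISH in 5 of 6 batches, batch 2 being the exception in each.

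Genes with a pattern like that of each member were sought among 15480 entries by the correlation of batch-centred log2 CPM over the 24 libraries, with 0.01 added to the CPM of the genes searched, since some have libraries at 0. For CISH these were CSN1S1, a casein gene (Pearson r = 0.971), PABIR2 (0.951), ALOX15 (0.935), CD44, the hyaluronan receptor (0.933), and NABP1, a single-strand DNA binding protein (0.931). CSN1S1 had 5 to 687 reads with IL-4 + IL-13, 5 being the library of batch 2, and 0 reads in each of the 18 other libraries. With IL-4 + IL-13, the log2 fold changes of PABIR2, ALOX15, CD44 and NABP1 were 0.54, 10.58, 1.69 and 1.50, and all 5 genes were past the threshold. These genes were picked for their likeness to CISH over the same libraries, and most of the spread of CISH lay between treatments. That they passed is therefore not an independent result. ALOX15 had 4679 to 16617 reads in that group and 0 to 21 elsewhere. For SOCS1 the closest were COL6A2, C1QTNF1 and TMEM26 (0.821 to 0.834), and for SOCS3 OFD1, ZCWPW2 and PACC1 (0.785 to 0.810). For SOCS6 they included CLEC18C (0.924) and CLEC18B (0.913), near-identical copies that can share reads. SOCS2 was most like NSD3, TMTC4 and TAFA5 (0.865 to 0.892), SOCS4 like CCDC50, BMPR2 and PAFAH1B1 (0.917 to 0.934), SOCS5 like SCAMP1, CADM2 and MB21D2 (0.905 to 0.915) and SOCS7 like IKZF5, KBTBD3 and ZNF721 (0.744 to 0.764). Libraries of a batch share their differentiation, and no member was among the closest genes of another. Between members, the largest positive within-batch correlations were 0.65 for SOCS4 with SOCS5 and 0.62 for SOCS3 with SOCS6.

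Genes of the receptors that these inhibitors act on took unequal shares of the reads. Their CPM are not corrected for transcript length, so they do not order these genes by level. IL-4 and IL-13 receptor genes IL4R, IL13RA1 and IL13RA2 had means of 41.5, 153 and 87.0 CPM over all libraries, and the signalling chain of the IL-6 receptor, IL6ST, had 206 CPM, whereas IL6R, which binds IL-6 itself, had 5.19 CPM. Of 10 receptor genes of these families, 1 rose with IL-4 + IL-13 and none with TGF-β or IL-6. That gene was IL13RA2, the decoy receptor of IL-13 (log2 fold change 1.31, SE 0.17, adjusted p = 0.00077, higher in 6 of 6 batches). None of 11 JAK and STAT genes passed against vehicle in any treatment. The lowest unadjusted p among them were those of STAT3 with IL-4 + IL-13 (0.0196) and STAT5A with IL-6 (0.0233). Their log2 fold changes were -0.22 (adjusted p = 0.425) and -0.43 (adjusted p = 0.850).

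Other inhibitors of the pathway and the machinery of the SOCS box did not pass either. Among 10 other negative regulators of JAK-STAT signalling (PIAS proteins, phosphatases and adaptors), the lowest unadjusted p were those of SH2B3, an adaptor that restrains JAK2, and PTPN6, a phosphatase. Of 9 partners of the SOCS box in the ubiquitin ligase, ELOB (elongin B) and RBX1 had the lowest, and of 24 tested genes of other SOCS-box proteins, ASB1 and ASB2 had.

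Among the target gene lists, that of STAT6 held the most genes past the threshold. The lists were written with earlier results of these data known, so this order of the lists is not an independent result. Of 8 STAT6 target genes tested, 5 rose with IL-4 + IL-13, where 0.371% of all entries tested rose, and none with the other treatments. The median log2 fold change of the 8 with IL-4 + IL-13 was 2.79, beside -0.0077 over all entries. The 5 were ALOX15 (10.58), CCL26 (7.86), the protease inhibitor genes SERPINB4 (2.98) and SERPINB3 (2.60) and the adhesion molecule gene VCAM1 (1.93). SERPINB3 had 3 to 9 reads with vehicle and 10 to 88 with IL-4 + IL-13, and SERPINB4 was higher in 5 of 6 batches. SERPINB3 and SERPINB4 are close paralogs that can share reads. Of 19 STAT3 target genes tested, none passed with IL-6, and 1, the protease inhibitor gene SERPINA3, with IL-4 + IL-13 fell by 1.23 log2 units (SE 0.20, adjusted p = 0.0039, lower in 6 of 6 batches). Of 7 STAT5 target genes, 1 rose with IL-4 + IL-13, the growth factor gene IGF1 (1.41, SE 0.29, adjusted p = 0.0255, higher in 5 of 6 batches). Of 10 TGF-β target genes, none passed with TGF-β, where their median was 0.25, and with IL-4 + IL-13 TGFBI (-1.54) and LTBP2 (-1.12, adjusted p = 0.0497) fell.

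**Figure D5:**
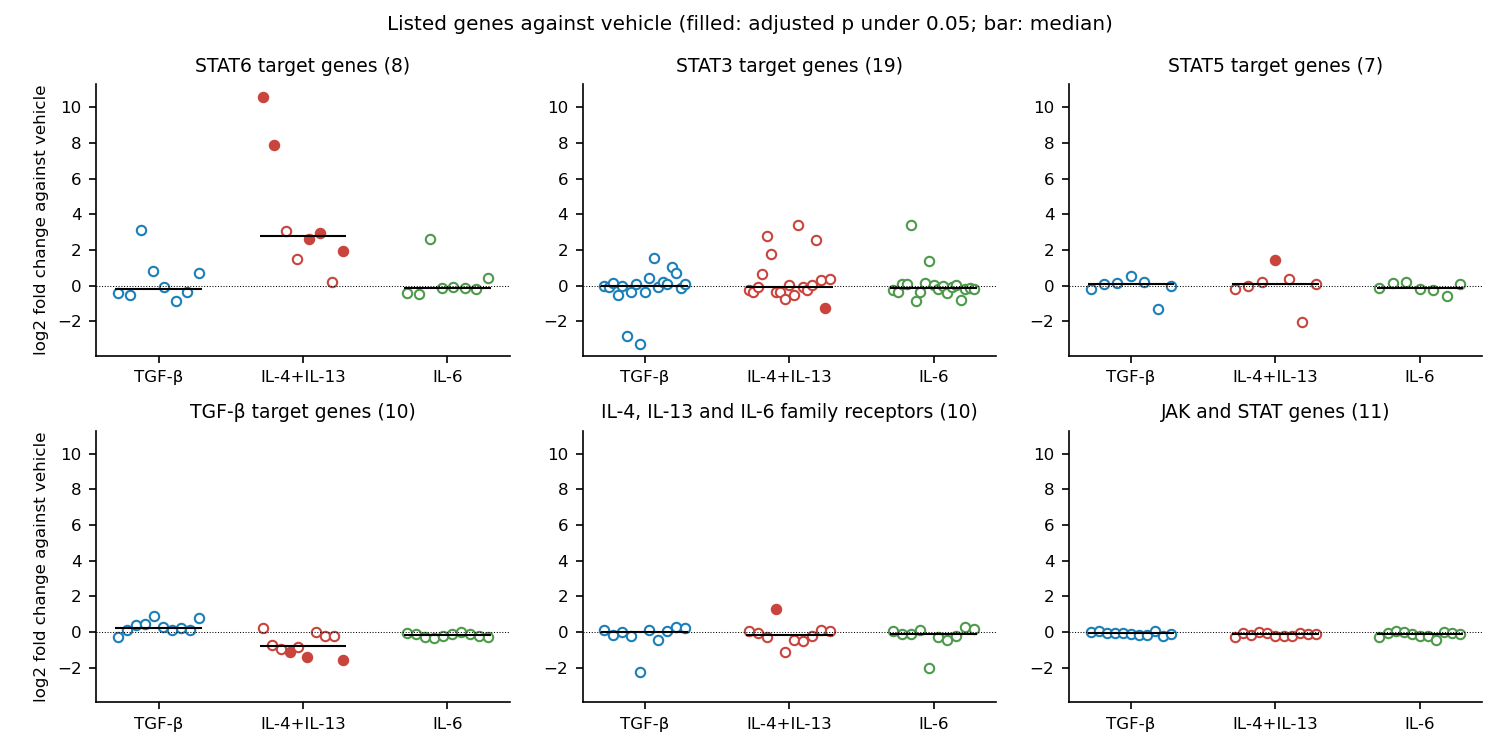
Log2 fold change against vehicle of the tested genes of 6 lists, a point per gene, by treatment, with filled points past the threshold, a bar at the list median and the number tested in the title. Filled points are found with IL-4 + IL-13 alone, 5 of them among 8 STAT6 target genes with a median of 2.79. The lists were written with earlier results of these data known.

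Batches were separate differentiations of 1 cell line, and the model takes out the level of each batch. The p-values therefore rest on how far treatment differences vary between differentiations of that line. Cytokine-treated cultures were taken at 1 time (5 days for TGF-β and for IL-4 + IL-13), and a feedback gene that rose and returned before then would not be seen.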

How the data were processed

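Poly(A) RNA of 24 cultures was sequenced on an Illumina NovaSeq by a provider. The deposited table gives unnormalized read counts by gene. The authors' provider trimmed reads with Trimmomatic 0.30 and aligned them to GRCh38.p14 (the labels call this human build a mouse reference). The aligner, counting tool and strandedness are not given in the sources used here. Libraries were not pooled.

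The table holds 36468 entries, of which 13161 are NewGene loci. Entries with a total of at least 10 (29377) were tested with edgeR 4.0.16 (R 4.3.3, TMM, robust quasi-likelihood test, 1 fit of all 24 libraries with terms for batch and treatment), with Benjamini-Hochberg adjustment over all entries tested and a threshold of 0.05. Adjusted p are edgeR's unless DESeq2 1.42.0 (Wald test, same model) is named. The SE was derived from the log2 fold change and F, and intervals use the t distribution. CPM are edgeR's counts scaled by the TMM-adjusted library size.

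Batch numbers come from the labels. Libraries of the same batch deviated together (median correlation 0.597 over 36 pairs, lowest -0.046, against -0.165 over 240 pairs of different batches), although 4 of 24 libraries, the vehicle libraries of batches 2 and 4 among them, correlated better with another batch.

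All members were named. From each list, genes past the threshold were named, up to 5, or otherwise the 2 with the lowest unadjusted p; of like genes, 3 per member and 5 for CISH. IL13RA1, IL4R, IL6R and IL6ST, and the cell markers, were named beside that rule. Some genes that this rule names are not reported here. The members and lists were chosen with earlier results of these data known.

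Alternatives were other size factors, filters, DESeq2, a model without batch, first rows alone, no NewGene loci, only the groups compared, no IL-6 libraries and leaving out each batch. Batches 3 to 6 alone, and batches 1, 3, 5 and 6 alone, were added after seeing the data.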

Additional observations from a re-analysis of the deposited data

Results flagged for a closer look

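In groups of 6 libraries, the highest or lowest library was compared with the rest by Dixon's ratio of its gap to the whole range, at its 95% critical value. Of 32 groups, 7 held such a library, where chance gives about 1 in 20 groups. For CISH it was the IL-4 + IL-13 library of batch 2, at 11.3 CPM, below the other 5. SOCS1 had the vehicle library of batch 6, at 1.17 CPM, the batch with the lowest mean SOCS1 over its 4 libraries (1.90 CPM). SOCS2 was lowest in the TGF-β library of batch 1, at 24.9 CPM. SOCS6 was lowest in the TGF-β library of batch 3, at 33.7 CPM, and batch 3 was the lowest for SOCS6 in every group. SOCS7 was lowest in batch 1 in the vehicle, TGF-β and IL-6 groups, at 22.1, 22.6 and 23.3 CPM. These values are given as measured.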

How the results depend on the processing

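Of 792 recomputed log2 fold changes of the members, 744 kept their direction and their side of the threshold. The rise of CISH with IL-4 + IL-13 lay between 4.25 and 4.71 and passed in 17 of 17 alternatives. Levels were recomputed 224 times and 0 moved by 1 SD or more.

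Without batch as a block, the pairing of libraries by batch was lost. Then 1 member passed between TGF-β and IL-4 + IL-13 in place of 2, since SOCS6 kept 0.34 with an adjusted p of 0.356, and entries called fell from 102 to 0 for TGF-β and from 186 to 13 for IL-4 + IL-13 against vehicle. In that fit SOCS2 with IL-6 had -0.0066. With only the groups compared, CISH missed the threshold between IL-4 + IL-13 and IL-6 (3.86, adjusted p = 0.0573), leaving 0 members there, and entries called against vehicle were 0 for TGF-β and 27 for IL-4 + IL-13. Under DESeq2, entries called against vehicle numbered 504 for TGF-β, 132 for IL-6 and 574 for IL-4 + IL-13, and it added SOCS3 (0.29) between TGF-β and IL-4 + IL-13. In batches 3 to 6 alone, 2 members passed for IL-4 + IL-13 (SOCS1 at 0.83 beside CISH), SOCS2 passed between TGF-β and IL-4 + IL-13 (0.62), and 349 entries were called for TGF-β. In batches 1, 3, 5 and 6 alone, 23 entries were called for TGF-β, and the members past the threshold numbered as in the fit of all batches in each comparison. Leaving out 1 batch at a time, 1 to 2 members passed for IL-4 + IL-13 and 2 to 3 between TGF-β and IL-4 + IL-13. Entries called ran from 1 to 133 for TGF-β, with 1 without batch 3 and 1 without batch 5, and from 76 to 234 for IL-4 + IL-13. The cause of these shifts was not tested.

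Direction changed 41 times, over 13 values near 0, with 0 of these fits past the threshold. SOCS5 between TGF-β and IL-4 + IL-13 (main -0.00075) was 0.0051 with DESeq2 size factors, 0.017 with filterByExpr, 0.0052 with DESeq2, 0.0033 without the block, 0.00034 with first rows, 0.0091 without NewGene loci, 0.0041 with only the groups compared, 0.00084 without IL-6 libraries and 0.017 in batches 3 to 6. SOCS4 between IL-4 + IL-13 and IL-6 (main 0.00023) was -0.00081, -0.0083, -0.0047 and -0.0060 with DESeq2 size factors, filterByExpr, no NewGene loci and only the groups compared. CISH between TGF-β and IL-6 was -0.0048 with only the groups compared. In batches 3 to 6, SOCS7 with TGF-β was -0.0088, SOCS2 with IL-6 -0.091, SOCS6 with IL-6 -0.0060 and SOCS3 between TGF-β and IL-6 -0.042. In batches 1, 3, 5 and 6, SOCS2 with IL-4 + IL-13 was 0.13, SOCS7 with IL-4 + IL-13 0.033, SOCS5 between TGF-β and IL-6 -0.019 and SOCS4 between IL-4 + IL-13 and IL-6 -0.055. Leaving out 1 batch at a time, these values crossed 0. Against vehicle, SOCS7 ran from -0.018 to 0.048 with TGF-β and from -0.049 to 0.038 with IL-4 + IL-13, SOCS2 from -0.32 to 0.041 with IL-4 + IL-13 and from -0.14 to 0.16 with IL-6, and SOCS6 from -0.021 to 0.053 with IL-6. Between TGF-β and IL-4 + IL-13, SOCS5 ran from -0.025 to 0.031 and SOCS7 from -0.019 to 0.047. Between TGF-β and IL-6, CISH ran from -0.067 to 0.14 and SOCS7 from -0.010 to 0.052. Between IL-4 + IL-13 and IL-6, SOCS4 ran from -0.043 to 0.024 and SOCS7 from -0.013 to 0.051.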
